A study of Mus musculus with 13 samples.

Results

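The 10 genes described here encode chains of matrix-binding integrins. They were chosen by symbol from the deposited count table, and all 10 symbols were found among its 32544 rows. Quant-seq, which counts the 3′ ends of polyadenylated transcripts, was run on whole lung of wild-type C57BL/6J male mice that had been bought at 7 weeks of age. The normoxia group (7 libraries) was kept at 21% oxygen and the hyperoxia group (6 libraries) at 80% oxygen, each for 5 days, with no other agent or allele, and the lungs were perfused before freezing. The comparison asks how gene expression differed between hyperoxic and normoxic lung. The libraries are numbered in the labels, and nothing states whether each came from its own mouse, so the p-values measure the spread between these samples.

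Integrins are cell-surface receptors made of 1 α and 1 β chain that tie the cytoskeleton to the extracellular matrix. The β1 chain (Itgb1) pairs with many α chains, and the α chain sets the ligand. The α1 and α2 chains bind collagens, α3 and α6 bind laminins of the basement membrane, and α5, α8 and αv bind proteins that carry the Arg-Gly-Asp (RGD) motif, such as fibronectin. The β6 and β8 chains pair with αv, and both receptors release active TGF-β from its latent complex. In lung, α8 is known from fibroblasts and smooth muscle, β6 from epithelium, and α6 from epithelium and endothelium.

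Total counts ran from 1607111 to 3387736 in normoxia and from 2029006 to 4540288 in hyperoxia. One library, hyperoxia replicate 1, stood apart, with correlations of log2 CPM with the others between 0.721 and 0.833, against 0.854 to 0.967 among the other libraries. It was kept, and results that rest on it are given without it. Every cell type marker found in the table was detected in at least 1 library, and Scgb1a1, the secretoglobin of lung club cells, had a mean of 33860 CPM in normoxia and 4349 CPM in hyperoxia. All levels are CPM, counts scaled to a common library total, after TMM scaling, which corrects for differences in library composition. Quant-seq takes about 1 tag per transcript, so these levels are not divided by gene length. The lungs were measured in bulk, so fewer cells of a type and less mRNA per cell cannot be told apart.

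Itgb1 mRNA was 2.13-fold higher in hyperoxic lung and Itga8 mRNA fell to 0.32 of its normoxic level, and these were the only members whose groups did not overlap. In the edgeR quasi-likelihood test over 12496 genes, with a threshold of 0.05 on the adjusted p, Itgb1, Itga3, Itga5 and Itga6 were higher and Itga8 was lower, among 9 members tested. Of all genes tested, 11.8% were higher and 10.8% lower by the same rule, and 10.8% had no overlap between the groups. Of all genes called, 52.3% were higher here and 38.8% when limma was run on the deposited log CPM table, but both directions given for Itgb1 and Itga8 held under every scaling tried. The median log2 fold change of the 9 members was 0.69, and that of all genes tested −0.030. Itga1, Itga2, Itgav and Itgb6 did not pass, and Itgb8 was removed by the filter on low counts. Without hyperoxia replicate 1, the same 4 genes were higher and Itga1 joined Itga8 among the lower, while the share of all genes called rose to 15.2% higher and 13.3% lower. The calls of Itga3, Itga5 and Itga6 were each lost in other fits and are described with that limit below.

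**Figure D1:**
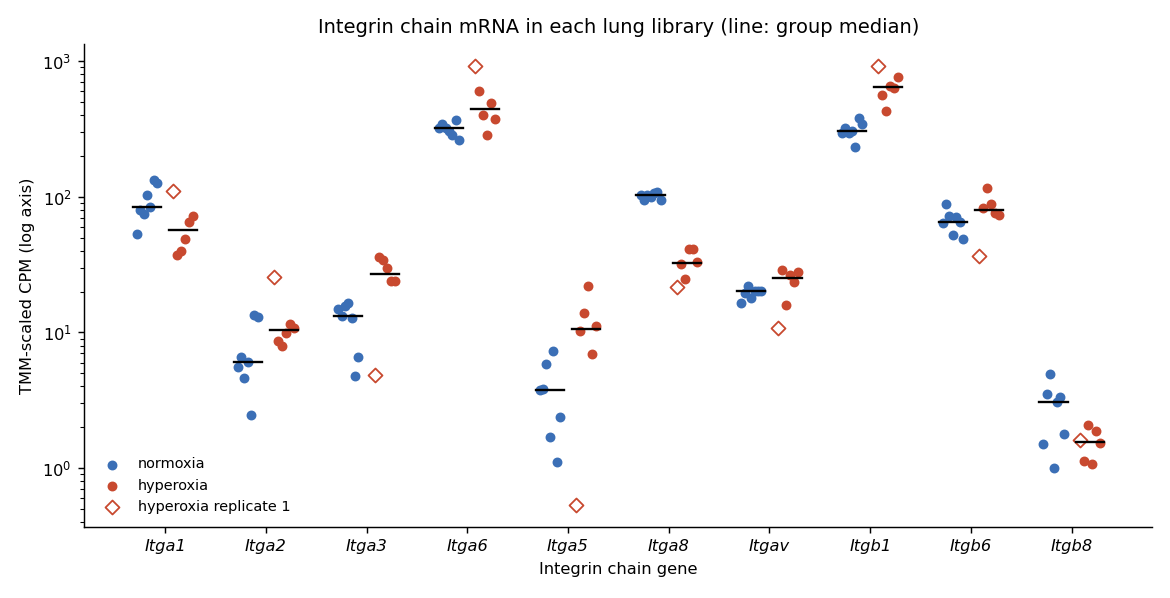
TMM-scaled CPM (log axis) of the 10 integrin chain genes, with 1 point for each of 7 normoxic and 6 hyperoxic libraries and a line at each group's median; the open diamond is hyperoxia replicate 1. Only in Itgb1, with hyperoxia between 432 and 920 CPM, and in Itga8, with hyperoxia between 21.4 and 41.5 CPM, do the groups not overlap.

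Itgb1, on the plus strand of chromosome 8 of GRCm38 from 128685654 to 128733200, encodes the shared β1 chain. Its lowest, median and highest normoxic libraries stood at 233, 304 and 383 CPM. In hyperoxia they stood at 432, 643 and 920 CPM, so that every hyperoxic library was above every normoxic one. The log2 fold change was 1.09 (standard error 0.17, 95% confidence interval 0.73 to 1.45, edgeR adjusted p = 0.000294), which is 2.13-fold. The two-sided exact permutation test over all 1716 ways to assign the libraries to the groups gave p = 0.000583, the smallest it can give. The highest value belonged to hyperoxia replicate 1, and the log2 fold change stayed between 0.98 and 1.21 when any 1 library was left out. No annotated gene overlaps Itgb1 on either strand.

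Itga8, on the minus strand of chromosome 2 from 12106632 to 12301922, encodes the α8 chain, which pairs only with β1 and binds RGD proteins such as nephronectin. In normoxia the 7 libraries lay close together, with a lowest value of 94.9, a median of 103 and a highest of 108 CPM. In hyperoxia the lowest, median and highest values were 21.4, 32.5 and 41.5 CPM. The log2 fold change was −1.64 (standard error 0.16, 95% confidence interval −1.98 to −1.30, edgeR adjusted p = 4.3e-06), and the exact permutation test again gave p = 0.000583. Among all genes tested, 1.86% had a log2 fold change below that of Itga8. It lay between −1.71 and −1.54 when any 1 library was left out. The gene overlaps 1 annotated gene on each strand, and neither covers the annotated 3′ end of Itga8, where Quant-seq tags are taken. No source says that strand was used in counting, so tags from elsewhere in the gene remain uncertain.

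Markers of mesenchymal cells moved in both directions beside Itga8. Of 6 fibroblast markers tested, Pdgfra, a growth factor receptor, was higher (log2 fold change 1.19) and Inmt, a methyltransferase of alveolar fibroblasts, was lower (−1.97, edgeR adjusted p = 0.0279). The call of Inmt was lost without normoxia replicate 1, hyperoxia replicate 3 or hyperoxia replicate 5, and its log2 fold change lay between −2.40 and −1.70 over the 13 fits without 1 library. The summed level of the fibroblast list was between 958 and 1660 CPM in normoxia and between 806 and 1150 CPM in hyperoxia. The lowest hyperoxic sum was that of hyperoxia replicate 1. Of 8 smooth muscle and pericyte markers 3 were higher and 1 was lower, or 37.5% and 12.5%. The higher genes included Acta2 (0.77) and Des (0.96), which encode smooth muscle actin and desmin. The summed level of the 8 markers was between 342 and 434 CPM in normoxia and between 460 and 786 CPM in hyperoxia. The highest hyperoxic sum was that of hyperoxia replicate 1. Without hyperoxia replicate 1, 1 fibroblast marker was higher and 2 were lower, and 2 smooth muscle and pericyte markers were higher and 0 lower.

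Neither of the other RGD-binding α chains was called lower. Itga5, which encodes the α chain of the main fibronectin receptor, was close to the detection limit, with 1 to 82 counts per library. Its lowest, median and highest values were 1.11, 3.73 and 7.35 CPM in normoxia and 0.536, 10.7 and 22.1 CPM in hyperoxia. The highest 4 hyperoxic libraries lay above every normoxic library, and hyperoxia replicate 1, with 1 count, lay below them all. Itga5 rose by 1.62 on the log2 scale (standard error 0.52, edgeR adjusted p = 0.0347), but the exact permutation test gave p = 0.107. Hyperoxia minus normoxia in mean log2 CPM came to 0.27 within the libraries whose names run from B to M (5 normoxic, 3 hyperoxic) and 2.44 within those from O to S (2 normoxic, 3 hyperoxic). The call was lost in 8 of 13 fits with 1 library fewer, and without hyperoxia replicate 1 the log2 fold change was 1.87 (edgeR adjusted p = 0.00191). With the library set as a term it was 1.65 and did not pass (edgeR adjusted p = 0.0580).

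Itgav encodes the αv chain, which pairs with β1, β6, β8 and other β chains. It stood at 16.4, 20.2 and 21.9 CPM (lowest, median and highest) in normoxia and at 10.7, 25.1 and 28.7 CPM in hyperoxia. Hyperoxic libraries lay on both sides of the normoxic range, 4 above and 2 below. The log2 fold change of 0.20 had a 95% confidence interval from −0.25 to 0.65 and did not pass (edgeR adjusted p = 0.542), nor did that of 0.35 without hyperoxia replicate 1 (edgeR adjusted p = 0.129).

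Of the β chains that pair with αv, Itgb6 was well detected and Itgb8 was not. The normoxic libraries of Itgb6 stood at 49.1, 64.7 and 88.1 CPM (lowest, median and highest) and the hyperoxic ones at 36.5, 79.2 and 115 CPM, where the lowest was hyperoxia replicate 1. The groups overlapped, and the log2 fold change of 0.26 (95% confidence interval −0.19 to 0.71) did not pass (edgeR adjusted p = 0.417). Without hyperoxia replicate 1 it was 0.42 (edgeR adjusted p = 0.0607). Itgb8 had 3 to 15 counts per library and was removed by the filter on low counts. Its level was 2.73 ± 1.37 CPM (SD, n = 7) in the normoxic and 1.55 ± 0.398 CPM (SD, n = 6) in the hyperoxic libraries, with all 6 hyperoxic libraries inside the normoxic range. In the fit with no filter on low counts, its log2 fold change was −0.76 (95% confidence interval −1.68 to 0.16, edgeR adjusted p = 0.283).

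Among the laminin-binding chains, Itga6 was the most abundant α chain of the set. Its lowest, median and highest values were 261, 319 and 368 CPM in normoxia and 283, 443 and 920 CPM in hyperoxia, and only 1 hyperoxic library was within the normoxic range. It rose by 0.69 on the log2 scale (standard error 0.22, edgeR adjusted p = 0.0327, exact permutation p = 0.0140). The value of 920 CPM belonged to hyperoxia replicate 1, without which the log2 fold change was 0.46 (edgeR adjusted p = 0.0415). Hyperoxia minus normoxia in mean log2 CPM came to 0.94 in the libraries named B to M and 0.26 in those named O to S. The call was lost in 6 of the 13 fits without 1 library, with adjusted p-values up to 0.0681. Itga6 overlaps 2 annotated genes on each strand, none of which covers its annotated 3′ end.

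Itga3 encodes the second laminin-binding chain, typical of epithelium. It stood at 4.74, 13.3 and 16.5 CPM (lowest, median and highest) in normoxia and at 4.83, 27.0 and 35.9 CPM in hyperoxia. Hyperoxia replicate 1, at 4.83 CPM, was the only hyperoxic library within the normoxic range, and the other 5 were above it. Itga3 rose by 1.09 on the log2 scale (standard error 0.37, edgeR adjusted p = 0.0425), and by 1.32 without hyperoxia replicate 1 (edgeR adjusted p = 0.00151). With all libraries the exact permutation test gave p = 0.0775, and the call was lost in 10 of the 13 fits without 1 library. The difference was 0.33 within the B to M libraries and 2.08 within the O to S libraries, in which both normoxic libraries were below the other 5.

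Epithelial markers moved in both directions beside these chains. The summed level of 7 markers of damage-associated alveolar epithelium was between 390 and 689 CPM in normoxia and between 1240 and 2110 CPM in hyperoxia, and of 6 tested 3 were higher and 1 lower. Lgals3, galectin-3, had the highest mean of this list, 304 CPM in normoxia and 1146 CPM in hyperoxia, and a log2 fold change of 1.92. The lower gene, named after its values were seen, was Clu, clusterin (−0.85, edgeR adjusted p = 0.0214). The summed level of 7 alveolar type 2 markers was between 12400 and 23100 CPM in normoxia and between 3190 and 6880 CPM in hyperoxia. Of these 7 markers 6 were lower. Of 7 alveolar type 1 markers 1 was higher and 1 lower. Their summed level was between 2600 and 3000 CPM in normoxia and between 3620 and 4680 CPM in hyperoxia. Akap5, the higher gene, had the highest mean of the list, 1194 CPM in normoxia and 2734 CPM in hyperoxia. The lower call, of Rtkn2 (−0.95), was kept in 4 of 13 fits without 1 library. Of 4 airway markers tested 1 was lower, Scgb1a1, whose groups did not overlap (log2 fold change −2.96, edgeR adjusted p = 0.00188). The summed level of 6 airway markers was between 14200 and 52300 CPM in normoxia and between 233 and 9900 CPM in hyperoxia. By the group means given above, most of this sum was Scgb1a1. Among the other airway markers tested, Scgb3a2 stood at −1.28, Ccdc78 at 0.011 and Foxj1 at −0.0077, and none of them passed. Without hyperoxia replicate 1, which had the lowest sum, 2 airway markers were lower. Without hyperoxia replicate 1, 7 markers of damage-associated epithelium passed the filter, of which 6 were higher and 1 lower. Of 9 endothelial markers 0 were higher and 4 lower, with a median log2 fold change of −0.70, and Gpihbp1, the capillary anchor of lipoprotein lipase, and Tek, the angiopoietin receptor, stood at −1.53 and −0.94. Their summed level was between 3000 and 5190 CPM in normoxia and between 1410 and 5010 CPM in hyperoxia, where the lowest was hyperoxia replicate 1, and without that library 1 was higher and 5 lower. The part of these markers in the rise of Itga3 and Itga6 was not tested.

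Neither collagen-binding chain passed the test. Itga1 encodes the α1 chain, which favours type IV collagen, and stood at 53.0, 83.3 and 134 CPM (lowest, median and highest) in normoxia and 37.0, 56.9 and 110 CPM in hyperoxia. Of 6 hyperoxic libraries 3 were below every normoxic one, and the highest was hyperoxia replicate 1. The log2 fold change was −0.60 (standard error 0.26, edgeR adjusted p = 0.120, exact permutation p = 0.0571). Without hyperoxia replicate 1, Itga1 passed, with a log2 fold change of −0.82 (edgeR adjusted p = 0.0129). The gene overlaps 2 annotated genes on the same strand and 1 on the opposite strand, none of which covers its annotated 3′ end. Itga2 encodes the α2 chain, which favours fibrillar collagens. Its values were 2.45, 6.06 and 13.4 CPM in normoxia and 7.99, 10.3 and 25.7 CPM in hyperoxia, with a log2 fold change of 0.69 (95% confidence interval −0.10 to 1.48, edgeR adjusted p = 0.206). The value of 25.7 CPM belonged to hyperoxia replicate 1, without which the log2 fold change was 0.38 (edgeR adjusted p = 0.422). Its difference in mean log2 CPM was 1.23 in the B to M libraries and −0.29 in the O to S libraries. The difference between the 2 library sets was tested as an interaction, added after the data were seen, and for none of the 9 members did it pass (edgeR adjusted p of at least 0.538). Over all 12496 genes, edgeR called 0 by this interaction, and 1158 had an unadjusted p under 0.05.

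**Figure D2:**
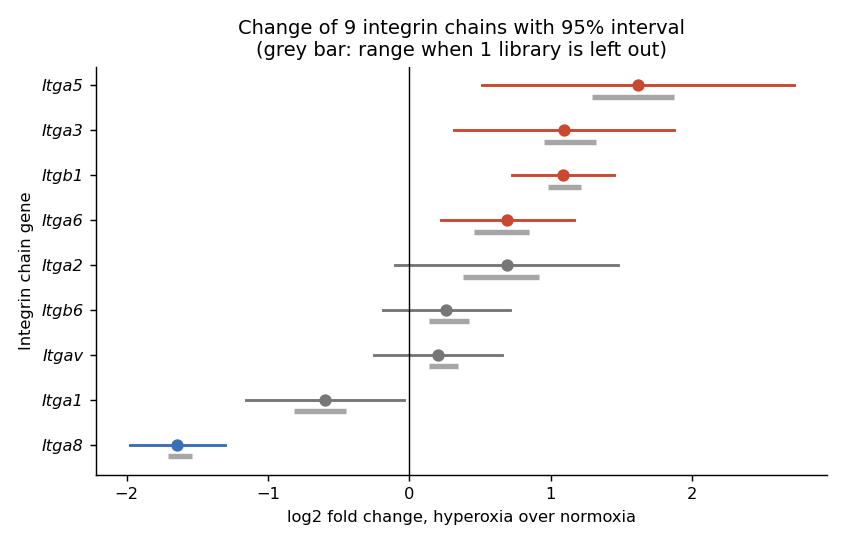
Log2 fold change of hyperoxia over normoxia for the 9 integrin chains tested (points) with unadjusted 95% confidence intervals (lines), red where higher and blue where lower at an adjusted p under 0.05; the grey bar under each is the range over 13 fits that each left out 1 library. Itgb1 at 1.09 and Itga8 at −1.64 have the narrowest intervals, and that of Itga5 runs from 0.51 to 2.72.

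The order of the levels differed between the groups. In normoxia the order was Itga6 (315 ± 35.5 CPM, SD, n = 7), Itgb1 (311 ± 46.7), Itga8 (101 ± 5.12), Itga1 (93.4 ± 29.1) and Itgb6, followed by Itgav, Itga3, Itga2, Itga5 and Itgb8. Itga6 was above Itgb1 in 5 of 7 libraries and Itga8 above Itga1 in 4 of 7, so these neighbours did not differ beyond their spread. In hyperoxia Itgb1 came first (661 ± 167 CPM, SD, n = 6), above Itga6 (510 ± 227) in 4 of 6 libraries, and Itga8 stood below Itgb6 and Itga1. The lowest ranks were held by Itga5 and Itgb8 in both groups.

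The α chains able to pair with β1 were also read as shares of their joint counts in each library, over 12 chains, 7 of them members. This is a description and was not tested. Itga6 made up 45.0% ± 3.82 (SD, n = 7) of the α chain counts in normoxia and 62.3% ± 9.01 (SD, n = 6) in hyperoxia. The groups narrowly missed overlap, with a highest normoxic share of 49.2% and hyperoxic shares from 50.1% to 74.4%, the last in hyperoxia replicate 1. A share also depends on the other chains and can be higher without more Itga6 mRNA. The share of Itga8 was 14.5% ± 1.22 in normoxia and 4.46% ± 1.87 in hyperoxia, also without overlap. Itga1 accounted for 13.2% ± 3.50 and 7.83% ± 2.18. The share of Itga4, the α4 chain of lymphocytes and other cells, was 7.94% ± 0.961 and 3.87% ± 1.12, without overlap. The summed level of the 12 α chains averaged 700 ± 57.2 CPM over the normoxic and 794 ± 241 CPM over the hyperoxic libraries, and the ranges overlapped. For each Itgb1 tag there were 2.28 ± 0.255 α chain tags in normoxia and 1.22 ± 0.284 in hyperoxia, and the highest hyperoxic library (1.54) was below the lowest normoxic one (1.98).

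**Figure D3:**
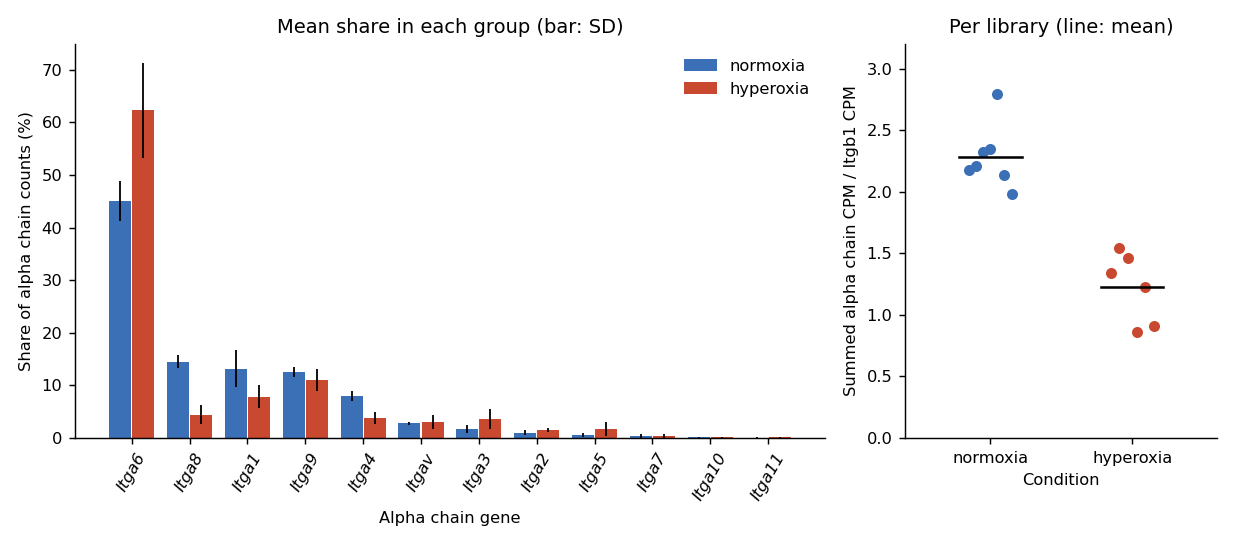
Left, mean share (%) of each of 12 α chain genes in their joint counts per library, with SD, for 7 normoxic and 6 hyperoxic libraries; right, summed α chain CPM divided by Itgb1 CPM, with 1 point per library and a line at the mean. Itga6 goes from 45.0% to 62.3% and Itga8 from 14.5% to 4.46%, and the ratio lies between 1.98 and 2.79 in normoxia and between 0.86 and 1.54 in hyperoxia.

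The library-to-library pattern of the 2 members with the smallest adjusted p was compared with that of 10104 other genes, on deviations from the group means over 12 libraries without hyperoxia replicate 1. Itgb1 was followed most closely by Myh9, the heavy chain of non-muscle myosin IIA (r = 0.991, and 0.993 with all 13 libraries). Dsp and Nceh1 came next (r = 0.963 and 0.962), and with all 13 libraries their r was 0.606 and 0.796. For Itga8 the closest genes were Cnnm2 (r = 0.942), Tspan32 (0.893) and Papss1 (0.887), and with all 13 libraries their r was 0.140, 0.493 and 0.926. These values are descriptive and were picked as the highest of many.

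Of 16 other integrin chains 11 were tested, of which 1 was higher and 3 were lower, with a median log2 fold change of −0.38. Itgb4 encodes the β4 chain, which pairs only with α6 in hemidesmosomes. It stood at 2.79, 5.65 and 10.5 CPM (lowest, median and highest) in normoxia and at 9.73, 14 and 54.1 CPM in hyperoxia, the last in hyperoxia replicate 1. Itgb4 rose by 1.56 on the log2 scale (standard error 0.40, edgeR adjusted p = 0.0111), and by 1.02 without that library (edgeR adjusted p = 0.0110). The leukocyte chain Itgal (−2.22) and Itga4 (−0.95) were lower without overlap between the groups. All 4 lymphocyte markers tested were lower too. The summed level of the 6 lymphocyte markers listed was between 116 and 165 CPM in normoxia and between 32.3 and 85.2 CPM in hyperoxia.

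Basement membrane ligands were followed with 20 genes, of which 17 were tested. By the same threshold 5 were higher and 1 was lower, with a median log2 fold change of 0.059. Col4a1, a chain of the main type IV collagen, averaged 779 ± 113 CPM over 7 normoxic and 3734 ± 564 CPM (both SD) over 6 hyperoxic libraries, a log2 fold change of 2.26 (edgeR adjusted p = 2.0e-07), and its partner chain Col4a2 had a log2 fold change of 1.87. The other 4 type IV chains did not pass. Nid1, nidogen-1, which links laminin to type IV collagen, was higher by 0.86. Of the laminin chains, Lamc1 (0.90) was higher and Lama3 (−0.76) was lower. These laminin genes were named after their values were seen.

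Ligands of the interstitial and provisional matrix moved in both directions, with 8 of 19 tested higher and 5 lower, and a median log2 fold change of 0.30. Of the collagens in this list, Col3a1, Col5a1 and Col5a2, were higher, and the last had a log2 fold change of 1.26. Of 11 tested ligands in this list other than collagens, 5 were higher and 5 lower. The higher genes were named after their values were seen. Tnc, tenascin-C of provisional matrix, had the largest rise of the list, from 1.12, 3.68 and 6.54 CPM (lowest, median and highest) in normoxia to 9.07, 28.6 and 45.2 CPM in hyperoxia, without overlap (log2 fold change 2.79, edgeR adjusted p = 0.000119). Spp1, osteopontin, was higher by 1.64, Thbs1, thrombospondin-1, by 1.61 and Fn1, fibronectin, by 0.87 on the log2 scale, and the groups of Spp1 and Fn1 overlapped. The calls of Spp1 and Fn1 were kept in 5 and 6 of the 8 fits with another tool, scaling, filter or term, with adjusted p-values up to 0.106 and 0.111. Fbn1, fibrillin-1, went from a mean of 62.6 ± 17.3 CPM over the 7 normoxic libraries to 177 ± 43.5 CPM over the 6 hyperoxic ones (errors are SD), without overlap. The lower genes included Vtn, vitronectin, and Edil3, also named after their values were seen, with log2 fold changes of −2.09 and −1.45. Vtn was close to the detection limit, with at most 34 counts in a library, no count in 1 library and a hyperoxic mean of 1.5 CPM. Egfl6, a known ligand of α8β1, stood at 85.4, 110 and 118 CPM (lowest, median and highest) in normoxia and at 21.2, 29.5 and 47.2 CPM in hyperoxia. The groups of Egfl6 did not overlap, and its log2 fold change was −1.77 (standard error 0.18, edgeR adjusted p = 7.7e-06). Fbln5, fibulin-5 of elastic fibres, was lower by a log2 fold change of −0.95, also without overlap. Npnt, nephronectin, which was singled out after its values were seen as the best known ligand of α8β1, stood at 367, 466 and 527 CPM in normoxia and at 179, 245 and 469 CPM in hyperoxia. Its highest hyperoxic value belonged to hyperoxia replicate 1, and its log2 fold change was −0.75 (edgeR adjusted p = 0.0170), or −0.95 without that library. The call of Npnt was lost in 4 of the 13 fits without 1 library.

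Of 29 adaptors and kinases that act at the cytoplasmic side of integrins, all were tested, and 4 were higher and 1 lower, or 13.8% and 3.45%, against 11.8% and 10.8% of all genes. Without hyperoxia replicate 1, 5 adaptors and kinases were higher and 2 lower. Actn1, α-actinin-1, which links integrins to actin, had the largest change in the list, with 366 ± 60.1 CPM in normoxia, 1341 ± 434 CPM in hyperoxia and no overlap (log2 fold change 1.87, edgeR adjusted p = 5.8e-06). Fermt1, the epithelial kindlin that activates β chains, and Actn4 were higher by 1.44 and 1.02 on the log2 scale, and the groups overlapped in both. Fermt1 had at most 50 counts in a library. The log2 fold change of Actn4 lay between 0.65 and 1.20 when any 1 library was left out. Of 15 genes of latent TGF-β and its response, 2 were higher and 1 was lower (13.3% and 6.67%, against 11.8% and 10.8% of all genes). Without hyperoxia replicate 1 these counts were 4 and 2, in a fit that also called more of all genes, as given above. Lrrc32, which holds latent TGF-β at the cell surface for release by αv integrins, was higher by 1.20, and Tgfb3 was lower (−0.93, edgeR adjusted p = 0.0452), a call kept in 5 of 13 fits with 1 library fewer.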

How the data were processed

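Quant-seq libraries were analysed from the authors' deposited table of raw counts per gene symbol, made with kallisto in BioJupies. The submitters' processing notes list mm10 and limma 3.54.2, and the annotation is not given in the sources used here. A second deposited table holds log10 of CPM plus 1, which was recomputed from the counts to within 4.4e-16 and used in 1 alternative. All columns were mapped to the 13 samples by description. Genes passing filterByExpr (12496) were tested with edgeR 4.0.16 (TMM, glmQLFit, glmQLFTest, R 4.3.3) with no covariate and Benjamini-Hochberg adjustment over all of them. The study's own limma became an alternative, because the values are counts. Log2 CPM used a prior count of 2. A count of 3, the floor, is 0.656 to 1.84 CPM by library. Intervals cover the spread between libraries in the fit, and the floor is a count alone. No molecular identifiers were counted. Gene models came from GENCODE M21 (GRCm38).

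The members and lists were chosen with earlier results of these data known. By the rule set for them, named genes are all members, up to 3 per pathway list and 2 per cell type list with the smallest adjusted p under 0.05 and a minimum mean log2 CPM of 3, and the 3 genes most like each of 2 members. Genes named outside this rule, which include called collagens, laminins and other matrix ligands and some epithelial markers, were chosen after their values were seen. Gene lists are described by counts with no set test. Alternatives were DESeq2 1.42.0, limma-voom (limma 3.58.1), limma on the deposited values, library size alone, 2 other filters, the letter set of the library name as a term, a block for the replicate number, and each library left out. No 2 libraries of a group were copies of the same library, as all 36 pairs within a group differed by more than sampling noise. This check cannot show whether 2 libraries came from the same mouse. Protein sequences were not used here, and results of some listed genes are not reported here.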

Additional observations from a re-analysis of the deposited data

Results flagged for a closer look

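Within each group, the spread was looked at in 52 sets of values (member levels, total counts, correlations and α chain shares), and in 6 of them 1 library lay farther from its group than Dixon's critical ratio at 95%, where 1 in 20 by chance gives 2.6. Hyperoxia replicate 1 was the library in 3 of the 6. Its mean correlation with the other libraries was 0.779, and the next hyperoxic library stood at 0.886. Its log2 CPM of Itga2 was 4.72, with the next at 3.61, and its log2 CPM of Itga3 was 2.46, with the next at 4.61. In the same library the summed level of the airway markers was 233 CPM and that of the endothelial markers 1410 CPM, the lowest of all hyperoxic libraries in both, and the part of these in the integrin values was not tested. Normoxia replicate 5 had a total count of 1610000, below the others. Normoxia replicate 6 had the highest summed α chain level of its group, at 817 CPM. The share of Itga4 in the α chain counts was 9.97% in normoxia replicate 7.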

How the results depend on the processing

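Itgb1 stayed higher and Itga8 lower, past the threshold, in all 21 alternatives, with log2 fold changes of Itgb1 between 0.98 and 1.21 and of Itga8 between −1.73 and −1.54. No member changed direction in any alternative that could test it. The count of higher integrin genes, 4, was 1 with limma-voom, with limma run on the deposited log CPM table and with the replicate block, and 2 with library size alone and with at least 10 counts in every library, where 6 members could be tested. With the library set as a term the count was 3, without Itga5. It ranged from 1 to 4 when 1 library was left out, and the count of lower integrin genes ranged from 1 to 2. The calls lost were those of Itga3, Itga5 and Itga6. Itga3 was kept in the fits without normoxia replicate 3, normoxia replicate 4 or hyperoxia replicate 1, and its adjusted p over all alternatives was between 0.00151 and 0.188. For Itga5 the range was 0.00191 to 0.232, and for Itga6 it was 0.0123 to 0.180. Itgb4 was not called with the replicate block (1.39, edgeR adjusted p = 0.0801), nor were Spp1, Fn1, Vtn, Actn4, Acta2, Inmt and Tgfb3. With limma on the deposited values Spp1, Fn1 and Actn4 were not called. The cause was not tested.

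The replicate numbers share only a number, since the deviations of same-numbered libraries correlated between −0.325 and 0.272. With the replicate block, 703 genes were higher and 588 lower over all genes, against 1473 and 1346 without it, and in the pathway and cell type lists 16 were higher and 23 lower, against 29 and 35. Limma on the deposited values moved the median over all genes tested (log2 fold change) to −0.157, and library size alone to −0.104, and the share of higher genes among all calls was then 38.8% and 42.7%, against 52.3%. Itga2, Itga5 and Itgb8 had medians below 11 CPM in both groups, and their levels rest on few counts.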
